A study of Mus musculus with 13 samples.

Results

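The genes described here are 9 members of the TGF-beta pathway: the ligands Tgfb1, Tgfb2 and Tgfb3, the receptors Tgfbr1 and Tgfbr2, the activin subunit Inhba, the inhibitor Smad7, and the target genes Ctgf and Postn. They were taken by symbol from a table of 24421 genes, and all 9 symbols were present. Every one of the 9 passed the filter on low counts, both in the fit with mammary glands (17135 genes) and in the fit of tumors alone (16870 genes).

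RNA was sequenced from 11 individual tumors of the breast and from 2 glands free of cancer, all of female 202Mul/J mice of the FVB/N-TgN background with the MMTV-HER2/neu transgene. All 13 libraries therefore carry this transgene, a rat HER2/Neu cDNA that the MMTV promoter drives in breast epithelium, including the glands and the control tumors, although the labels list the genotype as wild type. The glands (n = 2) and the primary untreated tumors (n = 3) came from untreated mice. The primary STV tumors (n = 3) developed under stavudine (STV), a nucleoside analog that blocks reverse transcriptase, at 1 mg/mL in the drinking water. The recurrent DMAG tumors (n = 3) grew back once 17-DMAG, which blocks the chaperone HSP90 and was injected at 20 mg/kg, had first cleared them, and the recurrent DMAG+STV tumors (n = 2) did so in mice on stavudine. By the study's methods, 17-DMAG injections went on until the regrown tumors were collected, and stavudine was started either in young mice or after tumors had appeared. The labels give neither the age of each mouse nor which of these starts it had, and they do not say whether any tumors shared a mouse.

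TGF-beta ligands are secreted in a latent form bound to the matrix and, once released, bind the type II receptor TGFBR2, which recruits and phosphorylates the type I receptor TGFBR1. The activated receptors phosphorylate SMAD2 and SMAD3, which enter the nucleus with SMAD4 and switch on target genes, among them the inhibitor Smad7, which shuts the receptors off again. In mammary epithelium the pathway restrains growth, while in tumors it is known for its effects on fibroblasts, matrix and immune cells.

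Members of a pathway can share control elements, so the 250 bases before the start were searched on both strands for the SMAD box CAGAC, the TEAD motif GGAATG, the AP-1 motif TGANTCA and the TATA box TATAAA. Of the 9 genes, Tgfb3 and Ctgf had no entry in the promoter table, and the promoter of Smad7 is not reported here. Of the other 6, Tgfb1 and Tgfbr1 held none of these letters and Tgfbr2 held 1 SMAD box. The promoters of Inhba and Postn are shown because these genes had an unadjusted p under 0.05 between recurrent and primary tumors, and that of Tgfb2 because it held the most matches, 2 SMAD boxes and a TATA box. Capitals mark the matches. The sequences are RefSeq promoters of build GRCm38.p6, Inhba at chr13:16011601-16011850, plus strand, Postn at chr3:54360857-54361106, plus strand and Tgfb2 at chr1:186705990-186706239, minus strand. For Postn the table has 2 starts, and the one nearest to a coding transcript of GENCODE M21 was taken.
Inhba: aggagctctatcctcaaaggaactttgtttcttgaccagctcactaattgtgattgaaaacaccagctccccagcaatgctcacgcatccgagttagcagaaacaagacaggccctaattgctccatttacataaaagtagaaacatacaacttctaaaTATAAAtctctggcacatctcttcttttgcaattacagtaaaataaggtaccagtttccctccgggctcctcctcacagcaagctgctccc
Postn: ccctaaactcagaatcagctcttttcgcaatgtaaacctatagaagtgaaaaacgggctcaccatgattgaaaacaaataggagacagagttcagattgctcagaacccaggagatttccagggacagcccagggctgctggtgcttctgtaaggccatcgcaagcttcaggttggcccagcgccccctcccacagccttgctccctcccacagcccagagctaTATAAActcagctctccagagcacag
Tgfb2: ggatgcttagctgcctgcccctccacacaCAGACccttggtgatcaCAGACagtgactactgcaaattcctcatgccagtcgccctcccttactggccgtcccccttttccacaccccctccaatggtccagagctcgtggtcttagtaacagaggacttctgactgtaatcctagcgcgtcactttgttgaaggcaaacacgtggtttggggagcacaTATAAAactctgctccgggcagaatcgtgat
The TATA box began 26 bases before the start in Postn, 31 in Tgfb2 and 91 in Inhba, and the SMAD boxes of Tgfb2 began 221 and 204 bases before the start. The background was high for the SMAD box and lower for the other motifs. Of 32851 promoters, 42.2% held a SMAD box, 12.4% a TATA box, 12.6% a TEAD motif and 6.75% an AP-1 motif in the same window. A match describes letters and is no sign of binding.

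Library totals ran from 39921388 to 56887708 counts. Levels are given as CPM, counts relative to the size of each library after TMM scaling, whose factor was 0.493 in gland replicate 2 and 0.999 to 1.12 in the other libraries. Both tissues held luminal epithelial markers (Krt8, Krt18, Krt19, Epcam, Cdh1 and Erbb2), with none at 0. They summed to 6360 to 21670 CPM in tumors and to 12790 and 14250 CPM in glands. Most of each sum was Erbb2, the mouse counterpart of the transgene. It had 3698 to 19070 CPM in tumors and 11210 and 12900 CPM in glands, and the part of transgene reads in it was not tested. Milk protein genes summed to 28060 CPM in gland replicate 1 and 764800 CPM in gland replicate 2, and skeletal muscle genes to 1716 CPM in gland replicate 2 and at most 1558 CPM in a tumor. Among tumors, recurrent DMAG replicate 1 stood apart, with the highest scores (mean log2 CPM of a marker list) for fibroblasts (5.75, against 0.832 to 4.79 in the other 10 tumors) and leukocytes (5.28, against 3.66 to 4.78). In bulk RNA, more cells of a type and more RNA per cell cannot be told apart.

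Per kilobase of merged exons, Tgfb3 was by far the most abundant of the 9 genes. Merged exons take in all annotated transcripts of a gene. They can be longer than the RNA expressed, so the order of genes with close levels depends on this choice. Its median over the 11 tumors was 142 CPM per kb, followed by Tgfbr2 at 28.6, Tgfbr1 at 12.7, Smad7 at 10.5, Ctgf at 9.42, Tgfb2 at 9.35, Postn at 9.08, Tgfb1 at 5.43 and Inhba at 0.172 CPM per kb. The extremes of this order were separate. The lowest tumor had 76.6 CPM per kb of Tgfb3, above the 53.7 of the highest tumor for Tgfbr2, and Inhba reached at most 0.794, below the minimum of 2.69 for Tgfb1. Between these extremes the ranges overlapped, so Smad7, Ctgf, Tgfb2 and Postn, whose medians lay within 9.08 to 10.5, could not be ranked.

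**Figure D1:**
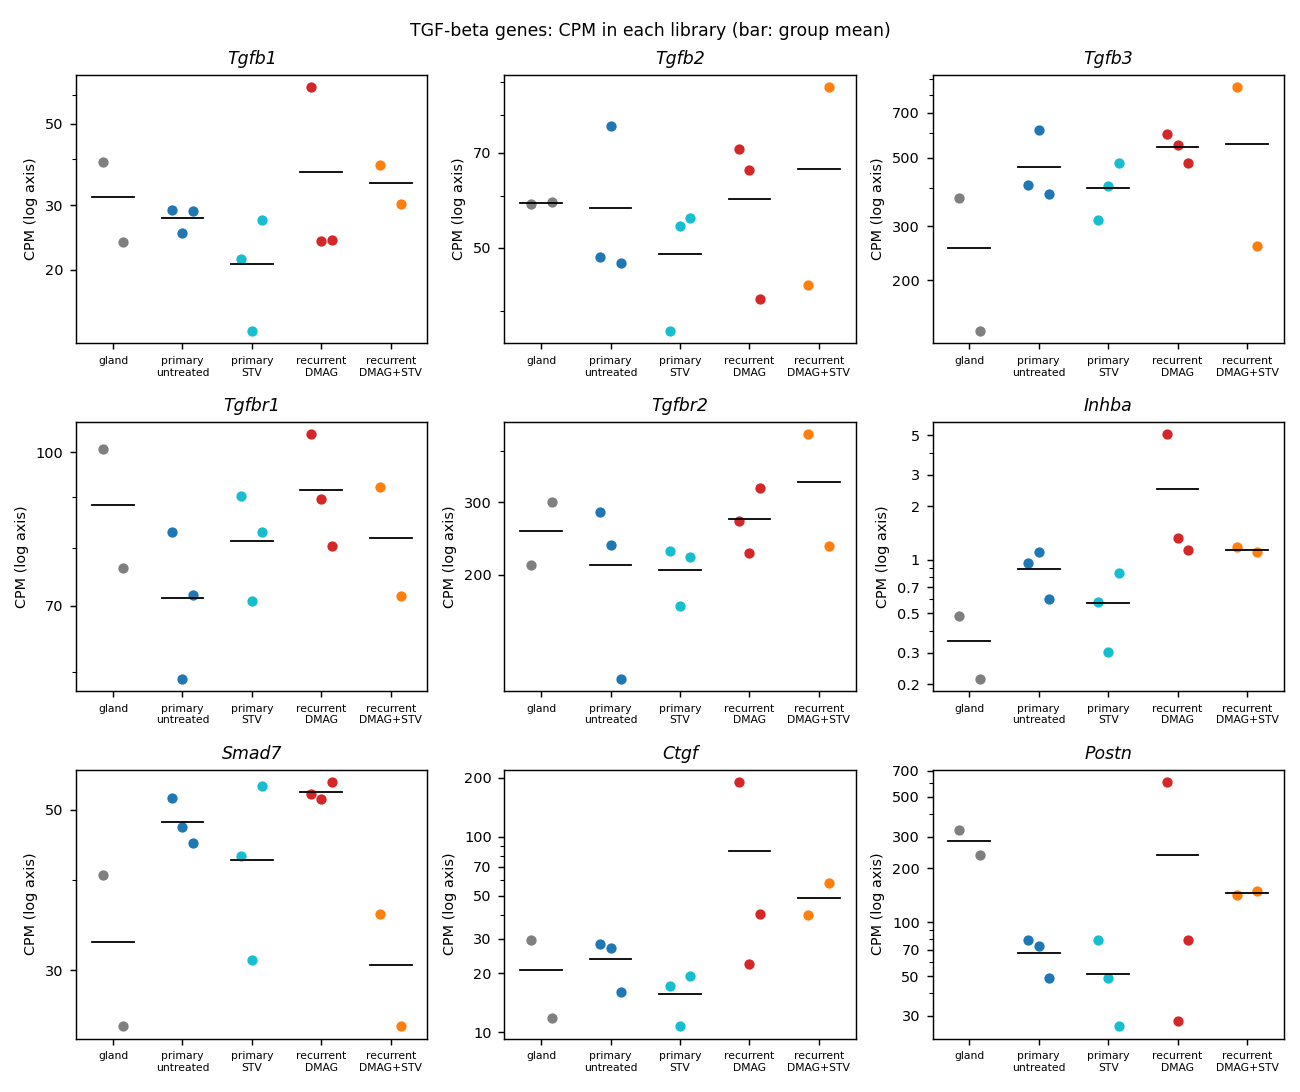
CPM of each of the 9 genes (vertical, log axis) in each library, by group (horizontal), with a bar at the group mean. For Ctgf, Postn and Inhba 1 of the 3 recurrent DMAG tumors, at 190.7, 605.8 and 5.07 CPM, lies far above the others, whereas the ligands Tgfb2 and Tgfb3 and the receptors spread less.

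Of the 3 ligands, Tgfb3 (chromosome 12, 86056743 to 86079041 on GRCm38.p6, as are all gene positions here) made up most of the summed level per kb in every library. This ligand gene is known for its induction in the mammary gland at the end of lactation. Its share of the summed level of the 3 ligands per kb was 78.2% to 94.3% in tumors and 86.0% and 73.0% in the glands. The lowest and the highest share among tumors were those of the 2 recurrent DMAG+STV tumors, so this group spanned the whole range.

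Tgfb3 had 370.8 and 136 CPM in glands and 407, 614 and 382 CPM in the primary untreated tumors. It was at 313, 406 and 480.4 CPM in the primary STV tumors, at 599, 552 and 480.7 CPM in the recurrent DMAG tumors, and at 851 and 259 CPM in the recurrent DMAG+STV tumors. Both glands lay below all 3 primary untreated tumors, while primary untreated tumors overlapped with every other tumor group. The recurrent DMAG tumors lay just above the primary STV tumors, 480.7 against 480.4 CPM at the nearest. The log2 fold change of primary untreated tumors against glands was 0.88 (SE 0.51, edgeR adjusted p = 0.298), and it was 0.43 without gland replicate 2 and 1.81 without gland replicate 1.

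**Figure D2:**
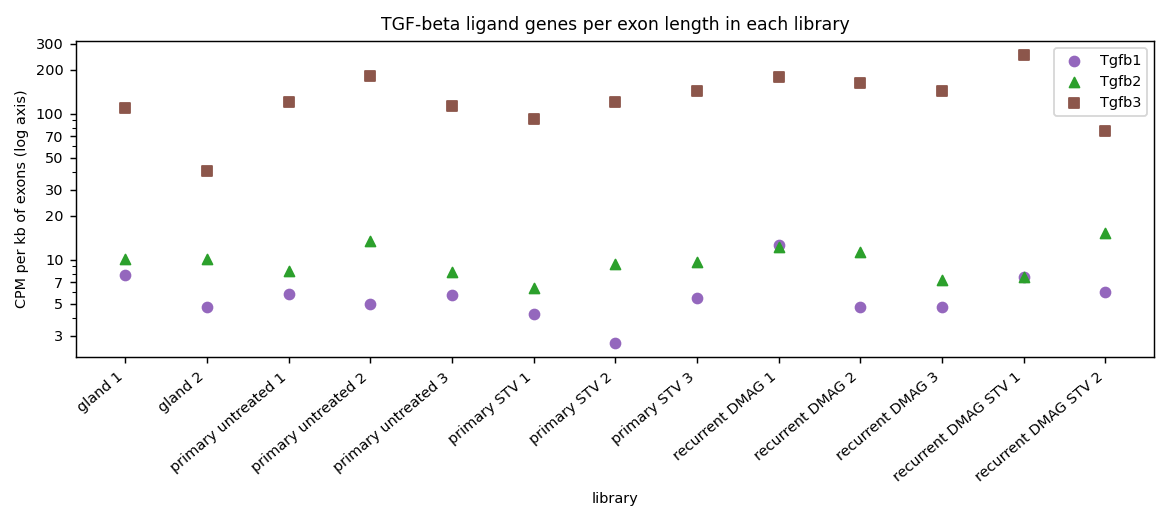
Levels of the ligand genes Tgfb1, Tgfb2 and Tgfb3 in CPM per kb of merged exons (vertical, log axis) in each of the 13 libraries (horizontal). Tgfb3 lies above Tgfb1 and Tgfb2 in every library, with a share of at least 73.0% of the 3.

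Tgfb1 (chromosome 7, 25687002 to 25705077), the ligand best known from immune and stromal cells, had the lowest level per kb of the 3 ligands in all libraries but recurrent DMAG replicate 1 and recurrent DMAG+STV replicate 1. It measured 39.4 and 23.8 CPM in glands, 29.1, 25.1 and 28.9 CPM in the primary untreated tumors and 21.3, 13.6 and 27.4 CPM in the primary STV tumors. Recurrent DMAG tumors had 63.1, 24.01 and 24.05 CPM, and recurrent DMAG+STV tumors 38.6 and 30.3 CPM. The top value belonged to recurrent DMAG replicate 1, 1.63 times the next tumor, while the other tumors of its group lay below all 3 primary untreated tumors. Both recurrent DMAG+STV tumors were above all 3 primary STV tumors.

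Tgfb2 (chromosome 1, 186622787 to 186709697), a ligand with roles in development and in epithelium, had the tightest glands of all, at 58.4 and 58.9 CPM. It stood at 48.5, 77.1 and 47.4 CPM in primary untreated, 37.2, 54.1 and 55.6 CPM in primary STV, 70.9, 65.8 and 41.8 CPM in recurrent DMAG and 43.8 and 88.5 CPM in recurrent DMAG+STV tumors. Every pair of tumor groups overlapped, the glands lay above the primary STV tumors, and its fold change against glands was -0.02 on the log2 scale (SE 0.34).

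Of the receptor genes, Tgfbr1 varied less than Tgfbr2. Tgfbr1 (chromosome 4, 47353222 to 47414926), the type I receptor kinase, was at 100.7 and 76.3 CPM in glands, 83.1, 59.1 and 71.7 CPM in primary untreated and 90.3, 70.8 and 83.0 CPM in primary STV tumors. It was at 104, 89.7 and 80.5 CPM in recurrent DMAG and 92.2 and 71.7 CPM in recurrent DMAG+STV tumors. With a ratio of 1.76 between the highest and the lowest tumor, it was the steadiest of the 9 genes over the tumors.

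Tgfbr2 (chromosome 9, 116087695 to 116175363), the type II receptor that binds the ligand first, was at 211 and 300.3 CPM in glands and at 285, 236 and 111 CPM in primary untreated tumors. Primary STV tumors had 228, 168 and 221 CPM, recurrent DMAG tumors 269.6, 226 and 324 CPM, and recurrent DMAG+STV tumors 439 and 234 CPM. The lowest value was 1 primary untreated tumor and the highest 1 recurrent DMAG+STV tumor. Per kb, Tgfbr2 exceeded Tgfbr1 in every library, by a factor of 1.24 to 3.80.

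Inhba (chromosome 13, 16004256 to 16031609) encodes the activin A subunit, a ligand that signals through the same SMADs as TGF-beta. Its level was low, with 6 to 219 counts a library. It was at 0.485 and 0.214 CPM in glands, 0.956, 1.10 and 0.601 CPM in primary untreated, 0.576, 0.305 and 0.844 CPM in primary STV, 5.07, 1.32 and 1.13 CPM in recurrent DMAG and 1.17 and 1.10 CPM in recurrent DMAG+STV tumors. Each recurrent tumor lay above each primary tumor, although the nearest pair both stood at 1.10 CPM, with 54 counts each. The highest tumor, recurrent DMAG replicate 1, was 3.85 times the next.

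Smad7 (chromosome 18, 75367365 to 75395935), the inhibitory SMAD, followed another pattern. It was at 40.6 and 25.1 CPM in glands, 52.0, 47.3 and 45.0 CPM in primary untreated, 43.2, 31.0 and 54.0 CPM in primary STV, 52.6, 51.8 and 54.7 CPM in recurrent DMAG and 35.9 and 25.1 CPM in recurrent DMAG+STV tumors. The recurrent DMAG tumors were close to each other and all above both recurrent DMAG+STV tumors, and recurrent DMAG replicate 1 did not stand out.

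Ctgf (Ccn2 in RefSeq; chromosome 10, 24595442 to 24598683) encodes a matricellular protein induced by TGF-beta and by YAP and TEAD factors. It was at 29.7 and 11.9 CPM in glands, 28.3, 26.9 and 16.1 CPM in primary untreated, 17.2, 10.7 and 19.4 CPM in primary STV, 190.7, 22.4 and 40.2 CPM in recurrent DMAG and 39.8 and 57.7 CPM in recurrent DMAG+STV tumors. Of the 5 recurrent tumors, 4 lay above all 6 primary tumors, and the exception was recurrent DMAG replicate 2. Recurrent DMAG replicate 1 was 3.31 times the next tumor.

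Postn (chromosome 3, 54359267 to 54391041) encodes periostin, a matrix protein made mainly by fibroblasts. It was at 327 and 237 CPM in glands, 79.4, 73.6 and 48.8 CPM in primary untreated, 79.7, 49.0 and 26.2 CPM in primary STV, 605.8, 28.0 and 79.0 CPM in recurrent DMAG and 142 and 149 CPM in recurrent DMAG+STV tumors. The recurrent DMAG group held the highest and nearly the lowest tumor, 605.8 and 28.0 CPM, a spread wider than that between any group means. The gland values were above those of all tumors except recurrent DMAG replicate 1, which was 4.08 times the next tumor.

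The comparison of primary untreated tumors (n = 3) with glands (n = 2) asked how the pathway differs between tumor and tissue of origin. By edgeR with Benjamini-Hochberg adjustment over all genes, 0 of the 9 genes were called at an adjusted p under 0.05, against 2.11% of all genes, and 0 had an unadjusted p under 0.05, against 24.5%. The groups did not overlap for 4 of them, Tgfb3, Inhba and Smad7 higher and Postn lower in tumors, which is 4 of 9 against 39.2% of all genes. The smallest p belonged to Postn, at 67.3 ± 16.2 CPM (SD, n = 3) in tumors and 282 ± 63.3 CPM (SD, n = 2) in glands, which gave a log2 difference of -2.07 (SE 0.94, edgeR adjusted p = 0.208). Next was Smad7, with 0.55 (SE 0.26, edgeR adjusted p = 0.225). DESeq2 and limma voom called 0 of 9 as well, and DESeq2 gave 1 an unadjusted p under 0.05.

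Whether Postn passed the test depended on a library outside the contrast. Without recurrent DMAG replicate 1, which enters only the estimate of spread, its log2 fold change was again -2.07 with an SE of 0.49 and an edgeR adjusted p of 0.0399. Fibroblast markers were also higher in glands, where the 10 genes summed to 391 and 562 CPM against 115 to 335 CPM in primary untreated tumors, with none at 0, and adipocyte markers summed to 1087 and 3556 CPM against 42.0 to 140.2 CPM. Their part in the lower Postn of tumors was not tested.

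Among 53 other genes of the pathway, 1 was called in this comparison. Bhlhe40, a transcription factor gene induced by TGF-beta, rose from 85.3 and 62.9 CPM in glands to 199.7, 213 and 217 CPM in primary untreated tumors, a 2.83-fold difference (SE 0.28 on the log2 scale, edgeR adjusted p = 0.0382). The call was lost with the compared groups alone (edgeR adjusted p = 0.128). Of the 53 genes, 19 had an unadjusted p under 0.05, 6 positive and 13 negative, beside the 24.5% of all genes, and the median of the list was -0.11 on the log2 scale against -0.02 for all genes. Acta2, the smooth muscle actin gene on the list, was at 87.3 and 289.7 CPM in glands and 9.38 to 19.0 CPM in primary untreated tumors (edgeR adjusted p = 0.0616). Myoepithelial markers moved with it, from 248 and 683 CPM in glands to 17.8 to 47.9 CPM in primary untreated tumors, with none at 0 in these libraries. Their part was not tested.

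**Figure D3:**
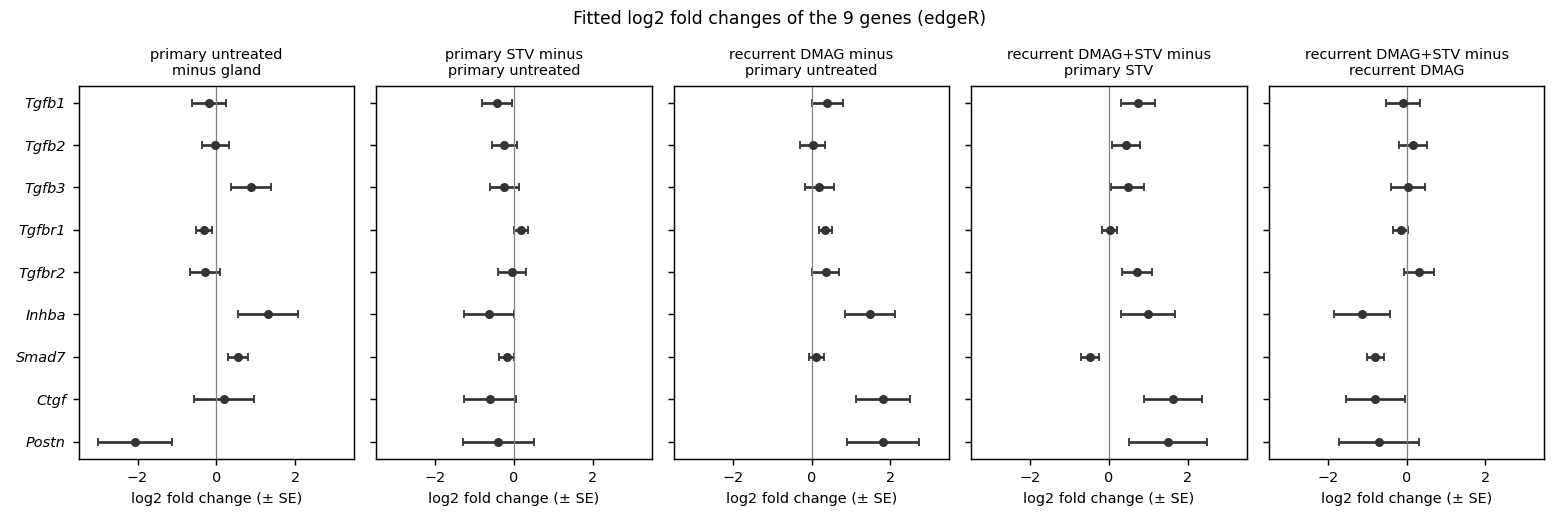
Log2 fold changes from edgeR (horizontal) with their SE for the 9 genes (vertical) in 5 comparisons of groups. None passed an adjusted p under 0.05, and the widest error bars are those of Postn, with an SE of 0.94 against glands.

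For stavudine in primary tumors, none of the 9 genes passed the edgeR test. Comparing 3 primary STV with 3 primary untreated tumors, edgeR called 0 of 9 (0% of all genes), 0 had an unadjusted p under 0.05 (3.76% of all genes), and 0 had groups that did not overlap (10.8% of all genes). The fold change was negative for 8 of the 9, with a median of -0.25 on the log2 scale against -0.03 for all genes, of which 44.9% were positive. Tgfb1, the smallest p, was at 20.8 ± 6.92 against 27.7 ± 2.27 CPM (SD, n = 3 each), a log2 fold change of -0.43 (SE 0.39, edgeR adjusted p = 0.9998). Tgfbr1, the exception in sign, had 0.18 (SE 0.17, edgeR adjusted p = 0.9998). DESeq2 and limma voom also called 0 of 9 in this comparison. The SEs of the 9 genes, up to 0.89 for Postn, show what this design could resolve.

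In the pathway list, 3 of 53 genes had an unadjusted p under 0.05, beside 3.76% of all genes, and 0 were called. The 2 smallest p were those of Bhlhe40 and of Junb, an immediate early gene, with log2 fold changes of -0.64 (SE 0.22) and -0.86 (SE 0.35) and an edgeR adjusted p of 0.9998 for both. Their groups did not overlap. Of the 18 target genes on the list, 17 had a negative fold change, with a median of -0.44, while 44.9% of all genes were positive. The macrophage score (7 markers) was 4.27 to 4.42 in primary STV and 4.54 to 4.72 in primary untreated tumors, without overlap, and the endothelial score (6 markers) 3.23 to 3.91 against 3.73 to 4.27, with no marker of either list at 0. Their part in these values was not tested.

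Recurrence without stavudine was assessed by comparing 3 recurrent DMAG with 3 primary untreated tumors. EdgeR called 0 of 9 genes (0% of all genes), 2 had an unadjusted p under 0.05 (9.69% of all genes), and 1, Inhba, had groups that did not overlap (15.1% of all genes). The fold change was positive for 9 of 9, with a median of 0.36 on the log2 scale against -0.01 for all genes. Ctgf was at 84.4 ± 92.4 against 23.8 ± 6.72 CPM (SD, n = 3 each), a log2 fold change of 1.82 (SE 0.69, edgeR adjusted p = 0.509). Inhba was at 2.51 ± 2.22 against 0.886 ± 0.257 CPM (SD, n = 3 each), a log2 fold change of 1.48 (SE 0.62, edgeR adjusted p = 0.509).

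A single library, recurrent DMAG replicate 1, carried these values. When it was left out, the log2 fold change of Ctgf was 0.40 (SE 0.37), that of Inhba 0.47 (SE 0.46), and that of Postn moved from 1.81 to -0.32 (SE 0.52), with the sign turned. Tgfb1 likewise moved from 0.41 to -0.20. Then 6 of 9 genes were positive, 0 had an unadjusted p under 0.05, and the median was 0.15. In the same tumor the 10 fibroblast markers summed to 777 CPM and the 7 macrophage markers to 567 CPM, the highest of their lists in any library, with none at 0. The leukocyte score was 4.004 to 5.285 in recurrent DMAG and 3.793 to 3.905 in primary untreated tumors, without overlap. The summed leukocyte markers overlapped, as did the fibroblast and macrophage scores. The part of these markers in the fold changes was not tested.

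The pathway list behaved likewise. Of 53 genes, 42 were positive in recurrent DMAG tumors, 10 had an unadjusted p under 0.05, all 10 of them positive, and 0 were called. Of all genes, 49.4% were positive and 9.69% had an unadjusted p under 0.05. Without recurrent DMAG replicate 1, 31 were positive and 6 had an unadjusted p under 0.05, beside 6.02% of all genes, and the median went from 0.48 to 0.06 on the log2 scale. The 2 smallest p were those of Acvrl1, a type I receptor of endothelium, at 0.68 (SE 0.22, edgeR adjusted p = 0.509), and of Tgif1, a SMAD co-repressor, at 0.70 (SE 0.25, edgeR adjusted p = 0.509). Without that tumor Acvrl1 had 0.46 and Tgif1 0.69.

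Recurrence under stavudine was assessed in tumors that do not include that library, 2 recurrent DMAG+STV against 3 primary STV tumors. EdgeR called 0 of 9 genes (0% of all genes), and 0 had an unadjusted p under 0.05 (10.1% of all genes). For 5 genes, Tgfb1, Tgfbr2, Inhba, Ctgf and Postn, both recurrent tumors lay above all 3 primary STV tumors, which is 5 of 9 against 35.3% of all genes without overlap. The fold change was positive for 8 of 9, with a median of 0.71 on the log2 scale against 0.01 for all genes. The exception was Smad7, and the signs of Tgfb2, Tgfb3 and Tgfbr1 turned under some other settings.

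On stavudine, Ctgf averaged 48.7 ± 12.6 CPM over the recurrent tumors (SD, n = 2) and 15.8 ± 4.51 CPM over the primary ones (SD, n = 3). Its log2 fold change was 1.63 (SE 0.74, edgeR adjusted p = 0.4999), and with the spread estimated without recurrent DMAG replicate 1 it was 1.62 (SE 0.37, edgeR adjusted p = 0.111). Smad7 was at 30.5 ± 7.64 against 42.7 ± 11.5 CPM (SD, n = 2 and 3), a log2 fold change of -0.48 (SE 0.22, edgeR adjusted p = 0.503), which was -0.78 without recurrent DMAG+STV replicate 1 and -0.26 without replicate 2. The fibroblast score was 4.01 and 4.79 in these recurrent tumors and 0.832 to 3.59 in the primary STV tumors. The lowest, primary STV replicate 3, had 2 of the 10 markers at 0 counts. The leukocyte score was 4.18 and 4.78 against 3.66 to 4.00. Summed levels overlapped, at 224 and 429 against 200.4 to 292.4 CPM for fibroblast and 366 and 844 against 270.1 to 500 CPM for leukocyte markers. For the macrophage list (7 markers) neither measure overlapped. Its score was 5.09 and 5.22 against 4.27 to 4.42, and its sum 265 and 289 against 153.5 to 174.4 CPM. The fibroblast and leukocyte scores, but not their sums, and both measures of the macrophage list thus separated these groups as Ctgf, Postn, Inhba and Tgfb1 did. Their part was not tested.

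All 18 target genes of the list were positive in this comparison, with a median of 1.38, and 6 of them had an unadjusted p under 0.05. Of all genes, 51.8% were positive and 10.1% had an unadjusted p under 0.05. Over the 53 genes, 43 were positive and 11 had an unadjusted p under 0.05, 10 positive and 1 negative, with 0 called. Lrrc32, which anchors latent TGF-beta on the surface of regulatory T cells, platelets and endothelium, was at 17.7 and 26.4 CPM in recurrent DMAG+STV tumors and 4.01, 3.24 and 4.47 CPM in primary STV tumors, a log2 fold change of 2.50 (SE 0.69, edgeR adjusted p = 0.336). Acta2, smooth muscle actin, was at 24.6 and 149 CPM against 18.0, 7.86 and 18.5 CPM. Its log2 fold change was 2.56 (SE 0.84, edgeR adjusted p = 0.405) and 0.73 without recurrent DMAG+STV replicate 2. Among tumors, that one had the most skeletal muscle RNA, at 1558 CPM. Primary untreated replicate 1 had 996 CPM of these muscle genes, in a group with at most 19.0 CPM of Acta2. Myoepithelial markers summed to 123 CPM in recurrent DMAG+STV replicate 2, of which Trp63 was 86.4 CPM. Their sum was 41.1 CPM in replicate 1 and 14.9 to 61.6 CPM in primary STV tumors, where replicate 3 had 2 markers at 0. The part of the muscle and myoepithelial markers in the Acta2 values was not tested.

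Averaged over the arms with and without stavudine in the water, the recurrent tumors (n = 5) were compared with the primary tumors (n = 6). EdgeR called 0 of 9 genes (0% of all genes), 3 had an unadjusted p under 0.05 (13.6% of all genes), and 1, Inhba, had recurrent tumors that did not overlap with the primary ones (1.34% of all genes). The nearest pair for Inhba had 54 counts and 1.10 CPM each. The leukocyte score did not overlap either, at 4.004 to 5.285 in recurrent and 3.658 to 3.997 in primary tumors. The summed leukocyte markers overlapped, as did the fibroblast and macrophage scores. Their part in the Inhba values was not tested. Of the 9, 8 were positive, with a median of 0.54 on the log2 scale against 0.00 for all genes. Since this average is built from the previous pair of comparisons and uses the same libraries, it is no separate evidence.

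Ctgf had the smallest p of the 9, with a log2 fold change of 1.73 (SE 0.50, edgeR adjusted p = 0.292). Without recurrent DMAG replicate 1 it was 1.01 (SE 0.26, edgeR adjusted p = 0.287), and with DESeq2 it was 1.74 with an adjusted p of 0.0215. Inhba had 1.24 (SE 0.46, edgeR adjusted p = 0.328) and 0.72 (SE 0.33, edgeR adjusted p = 0.468) without that tumor. Postn had 1.65 (SE 0.67, edgeR adjusted p = 0.342) and 0.58 (SE 0.36, edgeR adjusted p = 0.592) without it. Leaving out that 1 tumor thus reduced all 3 values, and of the 3 genes Ctgf alone then still had an unadjusted p under 0.05.

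**Figure D4:**
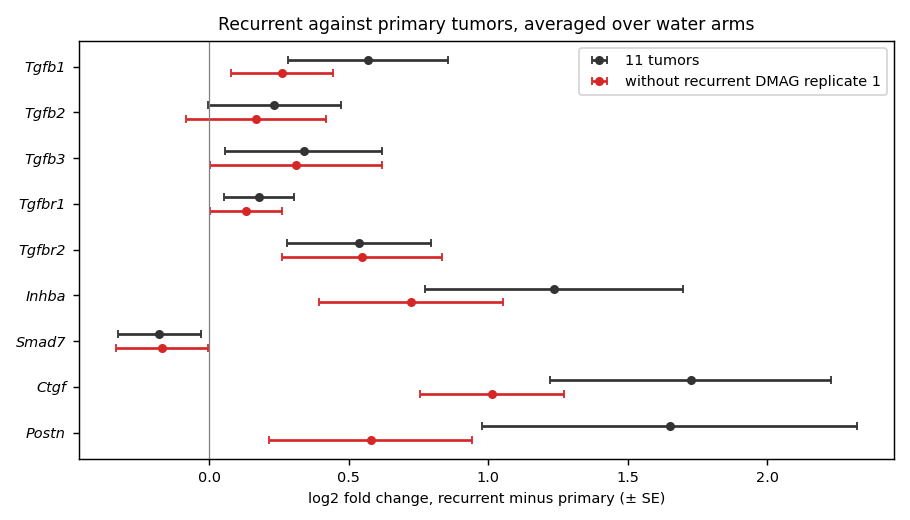
Log2 fold changes of recurrent against primary tumors, averaged over the arms with and without stavudine (horizontal, with SE), for the 9 genes (vertical), from 11 tumors and from 10 tumors without recurrent DMAG replicate 1. Postn moves from 1.65 to 0.58 and Ctgf from 1.73 to 1.01, while Tgfb3, Tgfbr1, Tgfbr2 and Smad7 move by less than their SE.

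In the pathway list, 44 of 53 genes were positive in the averaged comparison and 15 had an unadjusted p under 0.05, all 15 positive, with 0 called and a median of 0.50. Of all genes, 50.3% were positive and 13.6% had an unadjusted p under 0.05. Without recurrent DMAG replicate 1 the median was 0.26 and 9 genes had an unadjusted p under 0.05, while 10.8% of all genes then did. Lrrc32 had a log2 fold change of 2.05 (SE 0.46, edgeR adjusted p = 0.287), and 1.43 without that tumor. Tgfbi, a matrix gene named for its induction by TGF-beta, was at 50.8, 13.2 and 14.8 CPM in recurrent DMAG and 20.7 and 28.5 CPM in recurrent DMAG+STV tumors, against 7.81 to 12.98 CPM in the 6 primary tumors. The recurrent and primary tumors did not overlap for Tgfbi, 1 of 53 pathway genes, beside 1.34% of all genes. Its log2 fold change was 1.37 (SE 0.35, edgeR adjusted p = 0.287), and it was 0.92 (SE 0.16, edgeR adjusted p = 0.202) without that tumor.

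Stavudine within recurrence was assessed by 2 recurrent DMAG+STV against 3 recurrent DMAG tumors, which share libraries with the recurrence comparisons. EdgeR called 0 of 9 genes (0% of all genes), and 1, Smad7, had an unadjusted p under 0.05 (7.84% of all genes) and groups that did not overlap (1 of 9 against 21.5% of all genes). Smad7 was at 30.5 ± 7.64 CPM (SD, n = 2) with and 53.0 ± 1.51 CPM (SD, n = 3) without stavudine, a log2 fold change of -0.79 (SE 0.22, edgeR adjusted p = 0.403). It was -0.80 without recurrent DMAG replicate 1, -1.09 without recurrent DMAG+STV replicate 1 and -0.57 without recurrent DMAG+STV replicate 2. The luminal epithelium score (6 markers, none at 0) was 7.89 and 8.04 in recurrent DMAG+STV and 8.17 to 9.06 in recurrent DMAG tumors. The scores did not overlap, but the summed levels did, at 8955 and 15120 CPM against 6360 to 12400 CPM. Most of each sum was Erbb2, at 7712 and 13080 CPM against 3698 to 10280 CPM. Epcam, an epithelial adhesion gene of this list, was at 402 and 744 CPM against 874 to 1136 CPM. The other markers overlapped. Krt8, Krt18 and Krt19 were lower on average, Cdh1 was level, and Erbb2 was higher. Their part in the Smad7 values was not tested. Inhba followed with -1.13 (SE 0.71, edgeR adjusted p = 0.778), which was -0.11 without recurrent DMAG replicate 1.

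The sign of 3 members, Tgfb1, Ctgf and Postn, turned with that 1 tumor in this comparison. With it, 3 of 9 genes were positive and the median was -0.15 on the log2 scale against 0.00 for all genes. Without it, 6 of 9 were positive and the median was 0.29. In the pathway list, 3 of 53 genes had an unadjusted p under 0.05 with it, beside 7.84% of all genes, and 13 without it, beside 12.2% of all genes. The smallest p of the list was that of Tgif1, at 39.1 and 27.7 CPM with stavudine and 91.7, 103 and 67.6 CPM without, a log2 fold change of -1.38 (SE 0.29, edgeR adjusted p = 0.242) that was -1.35 without recurrent DMAG replicate 1. Inhbb, the activin B subunit, was at 359 and 490 CPM against 156, 217 and 211 CPM, a log2 fold change of 1.13 (SE 0.40, edgeR adjusted p = 0.513).

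Whether the recurrence difference itself depended on stavudine was tested as an interaction. EdgeR called 0 of 9 genes (0% of all genes) and 0 had an unadjusted p under 0.05 (7.84% of all genes). The smallest p were those of Smad7, at -0.61 on the log2 scale (SE 0.30, edgeR adjusted p = 0.655), and of Tgfbr1, at -0.33 (SE 0.25, edgeR adjusted p = 0.77). In the pathway list, 4 of 53 genes had an unadjusted p under 0.05 and 0 were called, with Tgif1 at -1.47 (SE 0.37, edgeR adjusted p = 0.435) and Itgb6, an integrin subunit that activates latent TGF-beta, at -0.77 (SE 0.32, edgeR adjusted p = 0.61). Without recurrent DMAG replicate 1, the interaction values of Ctgf and Postn moved from -0.18 to 1.22 and from -0.32 to 1.81, the tumor left out being the highest of both genes. Then 3 of 9 genes, these and Tgfb1, had an unadjusted p under 0.05, as did 13.4% of all genes, and 0 were called.

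Over the 11 tumors, the 9 genes were set beside the fibroblast score (10 markers) and the leukocyte score (8 markers), none of which are members, in 18 relations with 100000 permutations each (two-sided, Benjamini-Hochberg over the 18). The tumors of all 4 groups were pooled, because no group is large enough alone. The permutations moved tumors across groups, so a difference between groups and a relation within them cannot be told apart. The leukocyte score itself was 4.004 to 5.285 in recurrent and 3.658 to 3.997 in primary tumors, without overlap. Postn followed the fibroblast score with Pearson's r of 0.838 (permutation adjusted p = 0.0123) and Spearman's rho of 0.873 (permutation adjusted p = 0.016). Without the 2 tumors farthest from the median score r was 0.682, and the permutation p adjusted over the 18 was 0.299.

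With the leukocyte score, r was 0.877 for Tgfb1 (permutation adjusted p = 0.00666), 0.859 for Ctgf and 0.828 for Inhba (permutation adjusted p = 0.0123 for both). Spearman's rho was 0.736 for Tgfb1, 0.791 for Ctgf and 0.845 for Inhba, with permutation adjusted p of 0.0567, 0.0314 and 0.016. Without the 2 farthest tumors r was 0.609, 0.735 and 0.657, and no permutation p adjusted over the 18 was under 0.299. Postn with the leukocyte score had an r of 0.781 (permutation adjusted p = 0.033), a rho of 0.427 (permutation adjusted p = 0.349) and an r of 0.0898 without those 2 tumors, so that relation rested on them. The other 13 relations, among them both scores with Tgfb2, Tgfb3, Tgfbr1, Tgfbr2 and Smad7, had permutation adjusted p of 0.0652 or more by either coefficient.

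**Figure D5:**
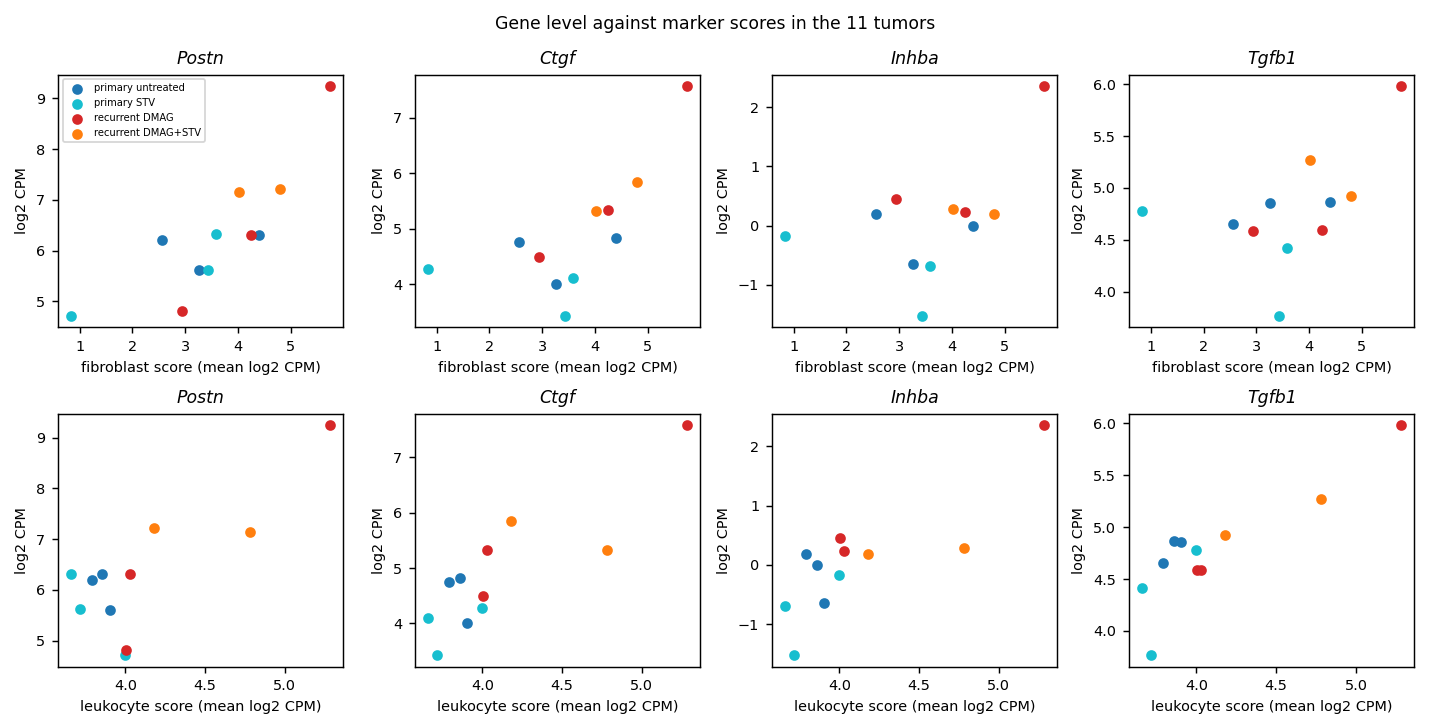
Level (log2 CPM, vertical) of Postn, Ctgf, Inhba and Tgfb1 against the fibroblast score (upper row) and the leukocyte score (lower row; horizontal, mean log2 CPM) in the 11 tumors, colored by group. Recurrent DMAG replicate 1 is the upper right point of each panel, at a fibroblast score of 5.75 and a leukocyte score of 5.28.

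The genes whose levels were most like those of each member were sought over the 11 tumors among 12684 candidates above a floor of 1 in mean log2 CPM. These are descriptions over the same libraries, and they include recurrent DMAG replicate 1. The highest of so many r values over 11 tumors can be large without a relation, and no chance level was set. Ctgf was most like Igfbp7 (Pearson's r = 0.982, and 0.956 without that tumor), a secreted binding protein of vessels and stroma, and Tagln (r = 0.978), an actin-binding protein of smooth muscle and myofibroblasts. Postn was most like the collagen gene Col3a1 (r = 0.981, and 0.968 without that tumor) and Dram1 (r = 0.98), which encodes a lysosomal membrane protein. Inhba was most like Ipo9 (r = 0.972, and 0.936 without that tumor), an import receptor of the nucleus.

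For the ligands and receptors the nearest genes were not matrix genes. Tgfb1 was most like Gab2 and Ranbp3 (r = 0.949 for both, and 0.90 without that tumor), Tgfb2 like Laptm4b (r = 0.891) and Raph1 (r = 0.889), and Tgfb3 like Arap2 (r = 0.931) and Mlxip (r = 0.929). Tgfbr1 was most like Fbxl14 (r = 0.932) and Fmnl3 (r = 0.929), Tgfbr2 like Puf60 (r = 0.921) and Atp7b (r = 0.89), and Smad7 like Rnh1 (r = 0.956) and Pif1 (r = 0.928). For Tgfb3, Tgfbr2 and Smad7 leaving out recurrent DMAG replicate 1 changed these values by less than 0.01.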

How the data were processed

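The authors deposited raw counts of reads on each gene, obtained by aligning stranded, ribosome-depleted total RNA to GRCm38 (mm10) with STAR and counting with featureCounts (Subread 1.6.2, with bcl2fastq 2.20 for base calls, per the submitters' processing notes). The strand setting of the counting was not given in the sources used here. Groups were compared with edgeR 4.0.16 under R 4.3.3 (filterByExpr, TMM, robust quasi-likelihood test, group means). The glands entered a fit of 13 libraries, and the other 6 contrasts a fit of the 11 tumors. P-values were two-sided and adjusted by Benjamini and Hochberg over all genes of a contrast, with a gene called under 0.05. The study itself used DESeq2, which served here as an alternative (1.42.0), as did limma voom 3.58.1, other scaling and filters, and leaving out each library.

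Replicates differed by far more than sampling noise, with a chi-square per degree of freedom of at least 47.8. The edgeR p-values set the difference between groups against the spread between these samples only. That spread was estimated over all libraries of a fit, also those outside the contrast, and drew on other genes. Library totals set the floor of 3 counts at 0.0587 to 0.107 CPM, which covers counting error only. Exon lengths came from GENCODE M21 and positions and promoters from RefSeq GRCm38.p6, the build of the counts. Ctgf is listed there as Ccn2. Log2 CPM used a prior count of 2. The scripts were tested on simulated data.

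The 9 genes, the 53 pathway genes, the marker lists and the motifs were chosen with earlier results of these data known. The text names, in each contrast, members with an unadjusted p under 0.05 (or the 2 smallest p), pathway genes called (or the 2 smallest p), and for likeness the 2 genes of highest Pearson's r. One of these likeness results is not reported here. Fold changes outside this rule (Tgfb3, Tgfb2 and Acta2 against glands, Postn and Tgfb1 in recurrence, Ctgf and Postn in the interaction) were added after their values were seen.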

Additional observations from a re-analysis of the deposited data

How the results depend on the processing

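With 2 or 3 tumors a group, SEs of 0.12 to 1.34 on the log2 scale limited what could be resolved for the 9 genes, and no fold change named by the rule changed sign under an alternative. Outside the rule, Postn, Tgfb1 and Tgfb2 in recurrence without stavudine, Tgfb1, Ctgf and Postn for stavudine in recurrent tumors, and Inhba, Ctgf and Postn in the interaction changed sign without recurrent DMAG replicate 1. Further members outside the rule changed sign under some other setting. In recurrence under stavudine the ranges were -0.16 to 0.85 for Tgfb2, -0.63 to 1.09 for Tgfb3 and -0.19 to 0.17 for Tgfbr1. Tgfb2 and Tgfb3 also crossed 0 in the averaged comparison and the interaction. The replicate number did not pair the tumors. Of 15 same-numbered pairs 3 had a correlation of deviations over 0.1, against 12 of 30 other pairs, and with the number as a block edgeR called 0 pathway genes and 4 of all genes against glands, in place of 1 and 361, and the block added no call of a member in any comparison.

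DESeq2 called more genes throughout, and on simulated counts it also called more unchanged genes than edgeR. Against glands it called 12 pathway genes and 2352 of all genes. In the tumor comparisons, where edgeR called 0, it called 17 of all genes for stavudine in primary tumors, 61 for recurrence without stavudine, 331 (1 pathway gene, Lrrc32) for recurrence under stavudine, 277 (1 pathway gene, Tgif1) for stavudine in recurrent tumors, 419 (6 pathway genes and 1 member, Ctgf) for recurrence averaged and 189 (1 pathway gene, Tgif1) for the interaction. With the compared groups alone, edgeR called 0 genes and 0 pathway genes against glands, and 2 genes for recurrence under stavudine.

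Leaving out 1 library each, calls of members against glands ran from 0 to 1 (Postn, without recurrent DMAG replicate 1), those of pathway genes from 0 to 10 and those of all genes from 0 (without primary untreated replicate 2 or 3) to 3381 (without gland replicate 1). The count of all genes ran from 0 to 1 for recurrence without stavudine, 0 to 100 for recurrence under stavudine (pathway genes 0 to 1), 0 to 141 for stavudine in recurrent tumors, 0 to 6 for recurrence averaged and 0 to 77 for the interaction. The highest of these counts, 100, 141, 6 and 77, came without recurrent DMAG+STV replicate 1, where the lone tumor is assumed to vary like the other groups. Bhlhe40 against glands lost its call in 8 of 13 such fits. Of the 18 relations with marker scores, 5 had an adjusted p under 0.05 by Pearson's r, and 0 without the 2 farthest tumors. The counts by sign and unadjusted p without recurrent DMAG replicate 1 were chosen after seeing the data. The cause of these shifts was not tested.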
